A study of Mus musculus with 32 samples.

Results

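The chemokine system was followed through 9 genes: the receptors Cxcr4, Ccr2, Ccr7, Ccr9, Cxcr2 and Cx3cr1 (6 genes) and the ligands Ccl3, Ccl4 and Ccl9 (3 genes). They were taken by symbol from a raw count matrix of 24421 genes, so the members were 9 of 24421. RNA-seq had been performed on 8 fractions of bone marrow hematopoietic stem and progenitor cells of female C57BL/6 mice aged 10 weeks (young) or 20 months (aged), with 2 libraries in each of 16 groups and 32 libraries in all. No engineered allele or treatment was named for either age. Hematopoietic stem cells (HSCs) were negative for lineage markers, CD34, CD48 and Flt3 and positive for Sca-1, c-kit and CD150. Among the multipotent progenitors (MPPs), MPP1 differed from HSCs by CD34, MPP2 carried CD34, CD150 and CD48, MPP3 carried CD34 and CD48 without CD150, and MPP4 carried CD34, CD48 and Flt3. Granulocyte-macrophage progenitors (GMPs) lacked Sca-1 and carried c-kit, the Fc gamma receptor and CD34, megakaryocyte-erythrocyte progenitors (MEPs) lacked Sca-1, the Fc gamma receptor and CD34, and common lymphoid progenitors (CLPs) were low in Sca-1 and c-kit and positive for the IL-7 receptor. The marrow of each age was pooled and each fraction collected in duplicate sorts, as the experimental scheme states, although the study elsewhere speaks of biological duplicates. With n = 2 throughout, each p-value of the main fit rests on the spread between duplicates, estimated over all 16 groups together. This spread may be technical, and it is not that of the tested fraction alone. In such bulk libraries, fewer cells that express a gene and less RNA per cell cannot be told apart.

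Chemokines are small secreted proteins that draw migrating cells along a gradient by binding G protein-coupled receptors on the cell surface. In bone marrow, Cxcr4 binds Cxcl12 from stromal cells and holds stem and progenitor cells in place, Ccr2 and Cx3cr1 mark cells of the monocyte line, Cxcr2 lets neutrophils leave, and Ccr7 and Ccr9 guide lymphoid progenitors to the thymus. Ccl3 and Ccl4 are inflammatory ligands made by activated leukocytes, and Ccl9 is a mouse chemokine made by myeloid cells.

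Total counts ran from 11237384 to 17723245 per library with a median of 13489609.5. Levels are given as CPM (read counts scaled to a common library size) after scaling by trimmed mean of M-values (TMM), with the SD of the 2 libraries, and 3 counts corresponded to 0.186 to 0.281 CPM. Duplicates differed by more than counting noise in every group, with a chi-square per degree of freedom of 4.59 to 19.0, and the highest values were in aged HSCs (19.0) and aged CLPs (18.6). Transcripts of the sorting antigens followed most gates: Il7r was at 158 and 195 CPM in young and aged CLPs and at most at 13.4 CPM elsewhere (young MEPs), and Flt3 was at 1063 and 732 CPM in MPP4 against 27.9 and 15.8 CPM in HSCs. Ly6a, which encodes Sca-1, was at 35.2 CPM in young and 214 CPM in aged CLPs (log2 fold change 2.60, called higher). The CLPs of the 2 ages thus differed in the RNA of a gated antigen, whose surface protein is not measured by these libraries. Of 8 sorting antigen genes, 5 were called lower in aged MEPs, against 20.8% of all tested genes. The other fractions had from 1 (HSCs) to 3 (MPP2, MPP3, MPP4 and CLPs) called, against 5.4% to 18.9% of all tested genes.

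The members lie on 3 chromosomes in the GRCm38 annotation. Ccl3 (chr11:83647844-83649355, minus strand), Ccl4 (chr11:83662584-83664683, plus strand) and Ccl9 (chr11:83572919-83578636, minus strand) are neighbours on chromosome 11, which also carries Ccr7 (chr11:99144196-99155077, minus strand). Ccr2 (chr9:124101950-124113557, plus strand), Ccr9 (chr9:123678439-123784330, plus strand) and Cx3cr1 (chr9:119901616-120069879, minus strand) are on chromosome 9, and Cxcr4 (chr1:128588199-128592293, minus strand) and Cxcr2 (chr1:74153989-74161246, plus strand) on chromosome 1. The annotated span of Ccr9 overlaps Lztfl1 and Slc6a20a, and that of Cx3cr1 overlaps Csrnp1, Gorasp1, Ttc21a, Wdr48 and Xirp1, all of them in the count table. Counting by strand was not stated, so reads in those overlaps are uncertain for both receptors.

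The RefSeq promoter table (GRCm38.p6) held 7 of the 9 members, all but Ccr7 and Ccl4. The 250 bases before the start site are shown for the neighbouring ligands Ccl3 and Ccl9, which were both lower in several aged fractions, and for Ccr2 and Ccr9, which were both higher in aged CLPs. Capitals mark matches, on either strand, to the NF-kB consensus, to the motifs AP-1 (TGANTCA), CRE (TGACGTCA), PU.1 (GAGGAAGT) and C/EBP (TTGCNNAA), or to AGATAA, the letters that GATA factors bind, and no 2 matches overlapped.
Ccl3 (chr11:83649379-83649628, minus): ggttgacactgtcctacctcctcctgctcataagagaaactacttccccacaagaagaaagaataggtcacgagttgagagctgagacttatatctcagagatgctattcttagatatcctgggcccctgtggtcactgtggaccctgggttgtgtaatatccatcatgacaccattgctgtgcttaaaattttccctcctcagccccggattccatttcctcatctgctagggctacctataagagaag
Ccl9 (chr11:83578637-83578886, minus): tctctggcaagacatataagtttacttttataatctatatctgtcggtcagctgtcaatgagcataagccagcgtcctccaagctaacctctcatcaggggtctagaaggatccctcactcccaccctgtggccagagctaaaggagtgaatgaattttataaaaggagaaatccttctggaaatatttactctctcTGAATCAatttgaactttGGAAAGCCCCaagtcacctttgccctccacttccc
Ccr2 (chr9:124101933-124102182, plus): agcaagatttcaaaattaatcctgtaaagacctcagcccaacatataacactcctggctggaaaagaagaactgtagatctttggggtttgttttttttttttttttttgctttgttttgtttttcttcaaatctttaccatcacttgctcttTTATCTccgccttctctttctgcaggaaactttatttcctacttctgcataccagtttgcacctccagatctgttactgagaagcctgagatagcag
Ccr9 (chr9:123766961-123767210, plus): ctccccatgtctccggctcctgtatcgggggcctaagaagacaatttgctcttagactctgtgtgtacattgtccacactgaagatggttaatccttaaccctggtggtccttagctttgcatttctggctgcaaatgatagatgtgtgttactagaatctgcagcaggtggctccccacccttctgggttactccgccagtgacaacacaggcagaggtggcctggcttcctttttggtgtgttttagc
Ccl9 held a match to the AP-1 pattern whose first base lies 53 bases before the start and an NF-kB match 35 bases before it. The AP-1 pattern leaves its centre base open, here A (TGAATCA), and the AP-1 share below counts every centre base. Ccr2 held 1 GATA match, 97 bases before the start, and no listed motif was found in the Ccl3 and Ccr9 windows. Over 32851 promoter windows of the same length, 3.90% held the NF-kB consensus, 6.75% AP-1, 1.55% CRE, 2.44% PU.1, 9.56% C/EBP and 9.99% GATA. These matches describe letters in the windows and not sites in use.

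More member levels were lower than higher in aged cells. Each member was compared between aged and young libraries within each fraction with edgeR's quasi-likelihood test, and "called" means a Benjamini-Hochberg adjusted p under 0.01 over all 14154 genes tested. Of 72 pairs of member and fraction, 22 were called, 17 of them lower and 5 higher in aged cells. The 5 that were higher were Cx3cr1 in MPP1, Ccl3 and Ccl4 in GMPs, and Ccr2 and Ccr9 in CLPs. Over all tested genes, 5.4% (HSCs) to 20.8% (MEPs) were called per fraction in either direction, and their split by direction is not given. The ligands Ccl3, Ccl4 and Ccl9 were called in 5, 6 and 3 fractions and each receptor in 0 to 3, so most falls were those of the ligands. For 8 pairs 1 or both ages sat at or near the floor of 3 counts, and no fold is given. In HSCs, 0 of the 9 members were called, against 5.4% of all tested genes; 2 members had an unadjusted p under 0.05, and DESeq2 called 0.

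The member counts differed between fractions. In MPP1, 1 member was called higher and 1 lower, against 6.8% of all tested genes called. In MPP2, 3 members were lower (7.81% of all genes called), in MPP3 4 were lower (13.9%) and in MPP4 3 were lower (16.6%). In GMPs, 2 were higher and 1 lower (18.9%), in MEPs 2 were lower (20.8%), and in CLPs 2 were higher and 3 lower (10.4%). The median log2 fold change of the members was -0.98 in MPP3 and -0.65 in MPP2, against -0.04 and -0.02 over all tested genes. With the pairs that have no fold left out and called members without counts at 1 age set at their bound, the median of the remaining fractions was -1.61 for MEPs (7 members), -0.60 for CLPs (9 members), -0.35 for MPP1 (8 members), -0.23 for MPP4 (9 members), -0.16 for GMPs (7 members) and 0.0027 for HSCs (6 members), where the medians over all genes lay between -0.02 and 0.02. The fitted medians over all 9 members were 0.19 in HSCs and -0.63 in MEPs, so those 2 values depend on members with almost no counts.

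**Figure D1:**
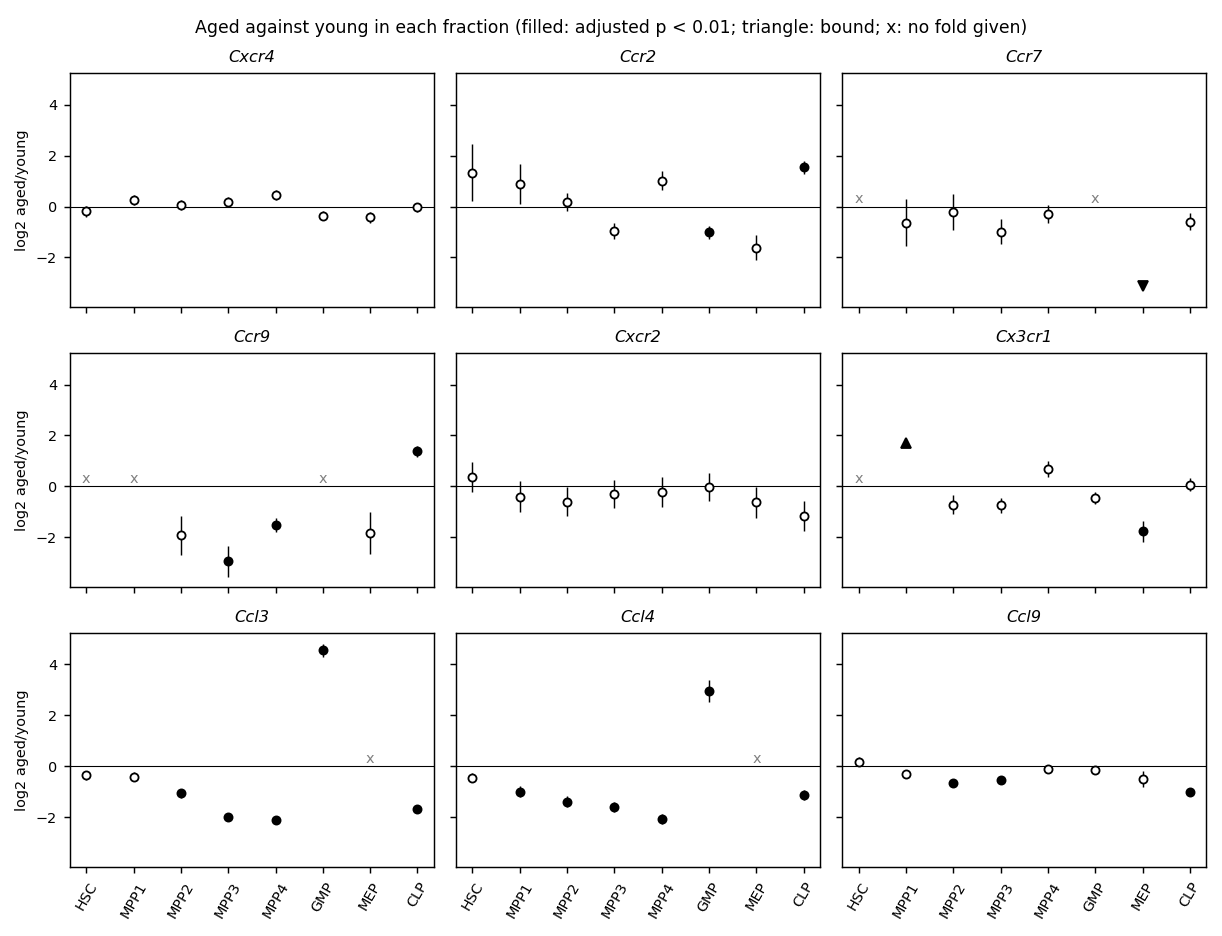
Log2 fold change of aged over young cells (y axis, with its SE) for the 9 members in the 8 fractions. Filled points are called at an adjusted p under 0.01, triangles are bounds where 1 age had no counts, and crosses mark pairs with no fold. Ccl3 and Ccl4 lie below 0 in MPP2, MPP3, MPP4 and CLPs and far above 0 in GMPs.

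A test of whether the age effect differed between the 8 fractions was called for 7 of the 9 members, against 34.9% of all tested genes. Its adjusted p (edgeR) was lowest for Ccl3 (1.17e-10), followed by Ccl4 (1.29e-06), Ccr9 (1.49e-05), Ccr2 (4.45e-05), Cx3cr1 (0.00044), Ccl9 (0.00117) and Ccr7 (0.00386). Cxcr4 (0.0912) and Cxcr2 (0.804) did not pass. The call for Ccr7 was lost without aged MEP library 1 (0.0156) or 2 (0.0168), whereas Cxcr2, with its unequal aged MEP libraries, was called without library 1 (0.00751) or 2 (4.02e-06).

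Cxcr4, the receptor for Cxcl12, was detected in every library, and its age differences were small in every fraction. In HSCs it had 5.99 and 6.06 CPM in the young libraries and 6.25 and 4.42 CPM in the aged libraries, and the ages overlapped (log2 fold change -0.18 ± 0.22, adjusted p 0.691). In GMPs the young libraries had 41.1 and 38.8 CPM and the aged 29.3 and 32.5 CPM, all of the latter lower, but the difference did not pass (-0.37 ± 0.18, adjusted p 0.13). In CLPs the young libraries had 33.0 and 30.2 CPM and lay within the aged pair of 26.6 and 35.6 CPM (-0.02 ± 0.18, adjusted p 0.987). Cxcr4 was called in 0 of 8 fractions by edgeR and in 0 by DESeq2, and 1 fraction had an unadjusted p under 0.05. MPP4 had 8.57 ± 1.0 CPM in young and 11.6 ± 1.0 CPM in aged cells (0.44 ± 0.20, adjusted p 0.104), and MEPs had 9.85 ± 1.7 CPM in young and 7.32 ± 0.38 CPM in aged cells (-0.43 ± 0.20, adjusted p 0.118). By fraction, GMPs (39.9 ± 1.7 CPM) and CLPs (31.6 ± 2.0 CPM) led in young cells, the other young groups had means of 6.03 to 10.3 CPM, and HSCs were lowest at both ages. Young MPP2, MEPs, MPP3, MPP4 and MPP1 overlapped with their neighbours in that order.

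Ccr2, the receptor for Ccl2 on monocytes and their progenitors, moved in opposite directions in GMPs and CLPs. In GMPs it had 209 and 233 CPM (2927 and 3378 counts) in the young libraries and 102 and 117 CPM (1141 and 1316 counts) in the aged libraries. Both aged libraries were lower, and Ccr2 fell by 1.01 ± 0.25 on the log2 scale (2.02-fold lower, adjusted p 0.00366). In CLPs the young libraries had 38.9 and 40.6 CPM and the aged libraries 151 and 81.4 CPM. Both aged libraries were higher, library 1 most, and Ccr2 rose by 1.55 ± 0.26 (2.92-fold, adjusted p 0.000208). The GMP call was lost without young library 2 (adjusted p 0.0251), aged library 1 (0.0515) or aged library 2 (0.0168) and with offsets for GC content and length (-0.83, adjusted p 0.0159). The CLP call was lost without aged library 1 (1.03, adjusted p 0.0146).

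In the other fractions Ccr2 was low and did not pass with edgeR. MPP3 had 13.5 and 11.5 CPM in young and 5.83 and 6.92 CPM in aged libraries, with the aged libraries lower (-0.98 ± 0.32, adjusted p 0.0282). MPP4 went the other way, with a mean of 3.78 ± 0.89 CPM in young and 7.61 ± 0.90 CPM in aged cells (1.02 ± 0.36, adjusted p 0.0379). MEPs had 38 and 71 counts in young and 13 and 14 in aged libraries (-1.61 ± 0.51, adjusted p 0.0184). DESeq2 called these 3 differences, with adjusted p of 0.00178, 0.00586 and 0.00017. In MPP2 the ages overlapped (60 and 72 counts against 87 and 74), and HSCs and MPP1 had 0 to 13 counts per library. In young cells the order of Ccr2 levels ran from GMPs to CLPs, MPP3 and MPP2 without overlap, whereas in aged cells the CLP and GMP libraries overlapped.

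Cx3cr1, the receptor for the membrane-bound chemokine Cx3cl1 and a gene of monocytes and macrophages, showed an order of fractions close to that of Ccr2. GMPs had 45.4 and 39.6 CPM in young and 30.2 and 31.8 CPM in aged libraries, and CLPs had 331 and 264 counts in young and 248 and 431 counts in aged libraries. The aged GMP libraries were both lower than the young ones, without passing the test (-0.46 ± 0.25, adjusted p 0.179), and the CLP libraries overlapped (0.08, adjusted p 0.906). In MEPs the level was 2.95 and 1.94 CPM in young and 0.750 and 0.688 CPM in aged libraries. Both aged libraries were lower, and Cx3cr1 fell by 1.76 ± 0.42 (3.39-fold lower, adjusted p 0.00298). In MPP1 both young libraries had 0 counts and the aged libraries 5 and 15 counts, at least 3.25-fold higher against the floor of 3 counts per library (adjusted p 0.00128). Both calls rested on few counts: the MEP call was lost without young library 1 (0.0405), aged library 1 (0.0221) or aged library 2 (0.0268), and the MPP1 call without young library 1 (0.0179), young library 2 (0.0150) or aged library 2 (0.0255). In MPP3 both aged libraries were lower (54 and 53 counts against 96 and 76), which did not pass (-0.75 ± 0.29, adjusted p 0.0676).

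Ccr7, which directs lymphocytes and thymus-seeding progenitors toward Ccl19 and Ccl21, was mainly found in CLPs and MPP4. Young CLPs had 64.3 and 72.7 CPM and aged CLPs 39.4 and 51.1 CPM, so that the aged libraries were lower, but the difference did not pass (-0.60 ± 0.33, adjusted p 0.234). MPP4 had 12.1 and 12.1 CPM in young and 10.1 and 9.76 CPM in aged libraries (-0.28 ± 0.36, adjusted p 0.621). In MEPs the young libraries had 29 and 39 counts (2.33 ± 0.67 CPM) and both aged libraries had 0 counts, at least 8.63-fold lower (adjusted p 0.000169). This was the single age call of Ccr7. The MEP libraries also differed in lymphoid transcripts: the summed level of 9 B lineage markers was 211 and 205 CPM in young and 1.22 and 0.861 CPM in aged MEPs, 7 of the 9 were called lower, and Il7r had means of 13.4 and 0.31 CPM. Of the 9 markers, 7 had no counts in each aged library. Monocyte and macrophage markers summed to 24.1 and 20.2 CPM in young and 3.00 and 3.18 CPM in aged MEPs, with 7 of 12 called lower. Over all tested genes, 20.8% were called in MEPs. The part of these lymphoid, monocyte and macrophage transcripts in the Ccr7 and Cx3cr1 differences was not tested. HSCs, MPP1, MPP2 and GMPs had 0 to 13 counts of Ccr7 per library, and CLPs, MPP4 and MPP3 stood in that order at both ages, the first 2 steps without overlap.

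Ccr9, the receptor for Ccl25 in thymus and gut, was higher in aged CLPs and lower in aged MPP3 and MPP4. In CLPs the young libraries had 242 and 243 CPM (2946 and 2994 counts) and the aged libraries 755 and 505 CPM (9779 and 6790 counts). Both aged libraries were above both young ones, and Ccr9 rose by 1.38 ± 0.21 (2.60-fold, adjusted p 0.000134). In MPP4 the young libraries had 16.2 and 15.3 CPM and the aged libraries 6.82 and 4.19 CPM. Both aged libraries were lower, and Ccr9 fell by 1.52 ± 0.29 (2.87-fold lower, adjusted p 0.000546). In MPP3 the counts were 34 and 48 in young and 5 and 6 in aged libraries, a fall of 2.94 ± 0.60 (7.69-fold lower, adjusted p 0.00133). MPP2 had 13 and 19 counts in young and 5 and 4 in aged libraries, which did not pass (-1.92 ± 0.76, adjusted p 0.101) but was called by DESeq2 (0.00687). The CLP call was lost without aged library 1 (1.06, adjusted p 0.0103), the MPP4 call without aged library 2 (-1.21, adjusted p 0.0202), and the MPP3 call without young library 2 (0.0207), aged library 1 (0.0202) or aged library 2 (0.0137). HSCs, MPP1 and GMPs had 0 to 8 counts per library, and MEPs had 30, 4, 4 and 3 counts (-1.84 ± 0.82, adjusted p 0.0933).

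Cxcr2, the receptor through which neutrophils respond to Cxcl1 and Cxcl2, was low in every fraction. Young CLPs had 8.96 and 7.62 CPM and aged CLPs 3.86 and 3.57 CPM, with the aged libraries lower (-1.16 ± 0.58, adjusted p 0.18). GMPs had means of 10.0 ± 1.9 CPM in young and 9.86 ± 0.79 CPM in aged cells, and their libraries overlapped (-0.02, adjusted p 1). In aged MEPs library 1 had 0 counts and library 2 had 73 counts, against 77 and 69 counts in young MEPs. The 2 aged MEP libraries thus disagreed, and the difference (-0.63 ± 0.60, adjusted p 0.474) was called only without aged library 2 (8.55e-08). In edgeR Cxcr2 was called in 0 of 8 fractions, with an unadjusted p under 0.05 in 0 fractions, and DESeq2 also called 0. HSCs had means of 3.69 ± 0.41 CPM in young and 4.81 ± 0.83 CPM in aged cells (0.37, adjusted p 0.785).

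**Figure D2:**
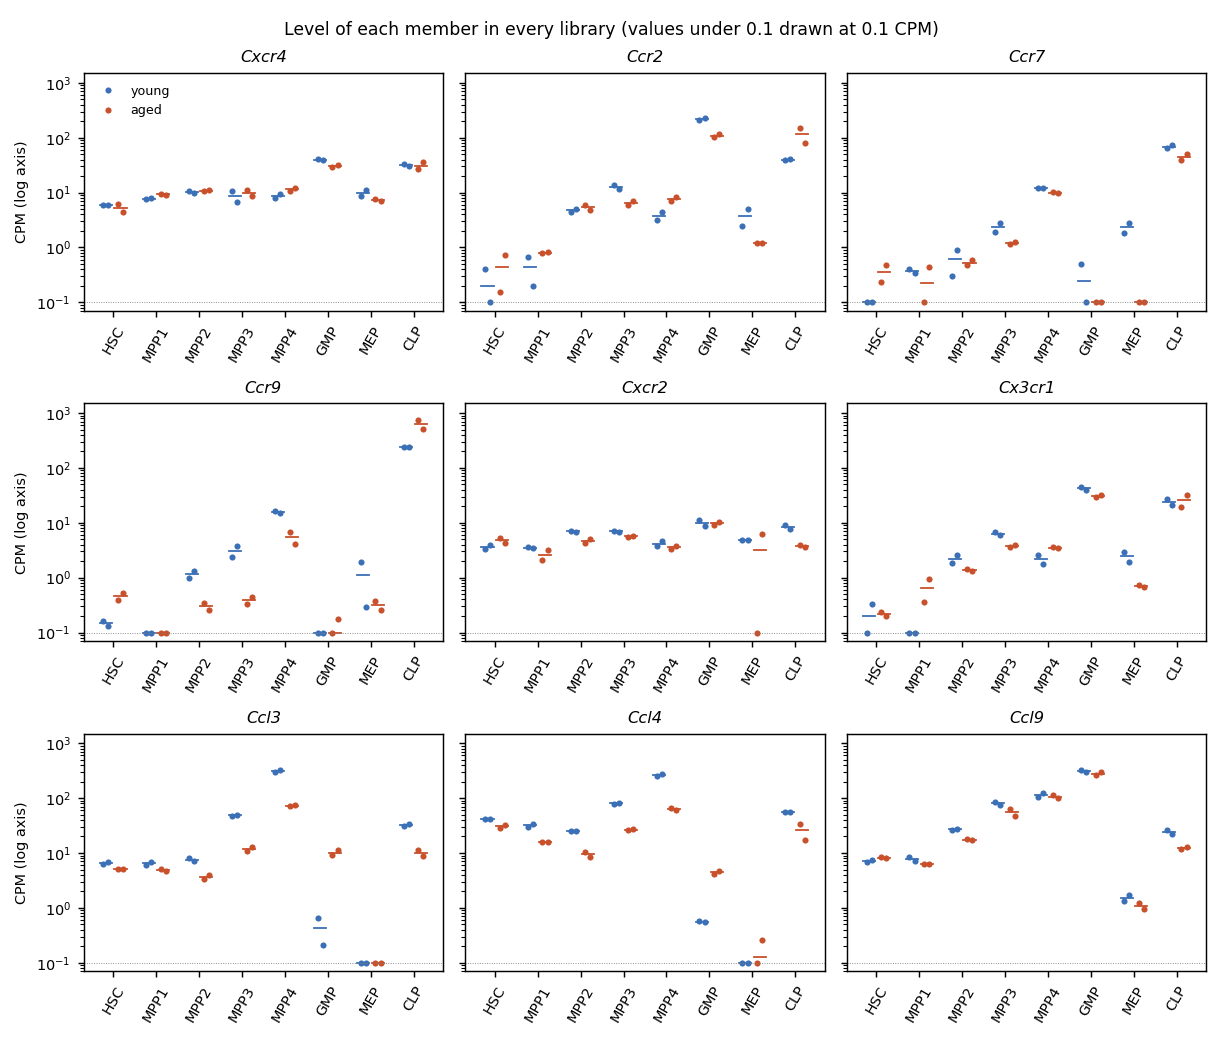
Level of each member in CPM (log axis, values under 0.1 drawn at 0.1) in the 8 fractions, with a point for each library and a bar for the mean of 2, young and aged side by side. Ccr2 and Cx3cr1 are highest in GMPs and CLPs, Ccr7 and Ccr9 in CLPs, and Ccl3 and Ccl4 in MPP4.

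Ccl3, also known as macrophage inflammatory protein 1 alpha, was highest in MPP4 at both ages, and its age difference had a different sign in GMPs than in the MPPs. In MPP4 the young libraries had 299 and 329 CPM (4834 and 4322 counts) and the aged libraries 71.5 and 74.0 CPM (964 and 1023 counts). The pairs lay far apart, and Ccl3 fell by 2.11 ± 0.13 (4.32-fold lower, adjusted p 1.72e-09). In MPP3 the young libraries had 692 and 626 counts and the aged libraries 165 and 178 counts (48.3 ± 0.32 against 12.0 ± 1.4 CPM), a fall of 2.01 ± 0.14 (4.02-fold lower, adjusted p 2.88e-08). CLPs went from 31.6 and 33.1 CPM to 11.3 and 8.84 CPM, a fall of 1.69 ± 0.14 (3.22-fold lower, adjusted p 1.06e-07). Aged libraries were lower in each of these fractions without overlap. In MPP2 the fall was 1.05 ± 0.18 (8.03 and 7.11 CPM in young, 3.39 and 3.91 CPM in aged libraries, adjusted p 0.000493). The MPP2 call was lost without young library 1 (0.0114) or aged library 1 (0.0149).

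In HSCs and MPP1 the aged Ccl3 levels were also below the young ones, by amounts that did not pass. HSCs had 6.23 and 6.71 CPM in young and 5.08 and 5.09 CPM in aged libraries (-0.35 ± 0.17, adjusted p 0.228), and MPP1 had means of 6.49 ± 0.68 and 4.90 ± 0.25 CPM (-0.41, adjusted p 0.134). In GMPs, by contrast, Ccl3 had 9 and 3 counts in the young libraries and 102 and 125 counts in the aged libraries (0.424 ± 0.31 against 10.1 ± 1.4 CPM). Both aged libraries were far above the young ones, and Ccl3 rose by 4.56 ± 0.26 (23.6-fold, adjusted p 7.34e-10). The size of this rise depended on young library 1, without which it was 5.54, and it was 3.96 without young library 2. MEPs had 0 counts of Ccl3 in all 4 libraries.

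Ccl4, or macrophage inflammatory protein 1 beta, fell in the same fractions as Ccl3 and in MPP1, and rose in GMPs. In MPP4 it had 253 and 281 CPM in young and 65.9 and 61.4 CPM in aged libraries, a fall of 2.07 ± 0.19 (4.20-fold lower, adjusted p 1.34e-07). In MPP3 the levels were 77.7 and 82.4 CPM in young and 26.5 and 26.9 CPM in aged libraries (-1.58 ± 0.19, 3.00-fold lower, adjusted p 7.29e-06). In MPP2 they were 24.9 and 24.8 CPM against 10.5 and 8.46 CPM (-1.39 ± 0.21, 2.62-fold lower, adjusted p 0.000188). Young and aged libraries did not overlap in any of these fractions. MPP1 had 30.3 and 33.9 CPM in young and 16.1 and 16.2 CPM in aged libraries (-0.99 ± 0.20, 1.99-fold lower, adjusted p 0.00208), a call that was lost without any of the 4 MPP1 libraries (adjusted p 0.0113 to 0.0265). In CLPs the young libraries had 56.5 and 55.2 CPM and the aged libraries 34.4 and 17.2 CPM (-1.11 ± 0.19, 2.17-fold lower, adjusted p 0.000365). The aged CLP libraries were both lower but apart from each other, and the fall was 1.70 without aged library 1 and 0.70 without aged library 2, both called.

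In HSCs the aged Ccl4 libraries (28.4 and 33.0 CPM) lay below the young ones (41.1 and 42.4 CPM) without passing (-0.44 ± 0.19, adjusted p 0.157). In GMPs Ccl4 had 8 and 8 counts in young and 47 and 53 counts in aged libraries, and rose by 2.97 ± 0.43 (7.84-fold, adjusted p 2.76e-05). MEPs had 0, 0, 0 and 3 counts. Per kilobase of annotated exon, Ccl3 and Ccl4 levels were nearly equal in MPP4 (410 and 405 CPM per kilobase in young, 95.0 and 96.4 in aged cells). In HSCs the per-kilobase levels lay apart, with 8.45 for Ccl3 and 63.3 for Ccl4 in young and 6.64 and 46.5 in aged cells. Aged GMPs were the other way round, with 13.2 CPM per kilobase for Ccl3 and 6.76 for Ccl4.

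Ccl9, a chemokine of myeloid cells that binds Ccr1, peaked in GMPs rather than in MPP4. GMPs had 328 and 299 CPM in young and 266 and 294 CPM in aged libraries, with the aged libraries lower by an amount that did not pass (-0.16 ± 0.11, adjusted p 0.307). In CLPs Ccl9 had 26.6 and 22.6 CPM in young and 11.9 and 12.9 CPM in aged libraries and fell by 0.99 ± 0.14 (1.99-fold lower, adjusted p 3.03e-05). In MPP3 it went from 84.1 and 76.4 CPM to 62.9 and 47.7 CPM (-0.54 ± 0.12, 1.45-fold lower, adjusted p 0.00204) and in MPP2 from 359 and 397 counts to 264 and 261 counts (27.3 ± 0.89 to 17.5 ± 0.65 CPM, -0.65 ± 0.13, 1.57-fold lower, adjusted p 0.0018). Aged libraries were lower without overlap in these 3 fractions, but the MPP2 call was lost without any of the 4 MPP2 libraries (adjusted p 0.0151 to 0.0288) and the MPP3 call without young library 1 (0.0450) or aged library 2 (0.0699). In MPP4 the libraries overlapped (103 and 123 against 112 and 98.6 CPM, -0.10, adjusted p 0.564), whereas Ccl3 and Ccl4 were 4.32-fold and 4.20-fold lower there. HSCs had means of 7.11 ± 0.55 and 8.13 ± 0.22 CPM (0.19, adjusted p 0.539), and MEPs had 11 to 24 counts per library.

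Markers of other cells also differed with age, and not only where members moved. HSCs had 0 of 9 members called. Neutrophil markers there summed to 59.8 and 66.7 CPM in young and 291 and 330 CPM in aged libraries, with 6 of 8 called higher. Basophil and mast cell markers had 4 of 9 called higher in HSCs, and monocyte and macrophage markers 1 of 12 higher and 2 lower. B lineage, dendritic cell and erythroid markers had 0 called in HSCs. In MPP3 the summed level of 8 neutrophil markers was 1167 and 1171 CPM in young and 191 and 259 CPM in aged libraries, with 7 of 8 called lower. The summed level of 12 monocyte and macrophage markers in MPP3 was 389 and 412 CPM in young and 143 and 145 CPM in aged libraries, with 9 of 12 called lower. In MPP2 the neutrophil markers summed to 697 and 745 CPM in young and 274 and 280 CPM in aged libraries, with 6 of 8 called lower. Erythroid markers summed to 919 and 965 CPM in young and 227 and 217 CPM in aged MPP2 (3 of 8 called lower), and to 1068 and 1038 CPM against 219 and 199 CPM in MPP3 (4 of 8 called lower). Basophil and mast cell markers had 2 of 9 called higher and 3 lower in MPP2, and 1 higher and 2 lower in MPP3. B lineage markers had 1 of 9 called lower in MPP2 and 3 in MPP3. Monocyte and macrophage markers had 3 of 12 called lower in MPP2, and T and NK cell markers 1 of 9 in MPP3. In MPP4, where Ccl3 and Ccl4 had their lowest fold changes among the MPPs, the neutrophil markers summed to 30.3 and 37.6 CPM in young and 38.6 and 40.6 CPM in aged libraries and the monocyte and macrophage markers to 110 and 118 CPM against 88.3 and 88.6 CPM, with 5 of 12 called lower. Also in MPP4, erythroid markers summed to 348 and 421 CPM in young and 108 and 106 CPM in aged libraries (1 of 8 called lower), and basophil and mast cell markers to 22.5 and 25.1 CPM against 6.97 and 7.66 CPM (2 of 9 called lower). In GMPs the monocyte and macrophage markers summed to 5556 and 5628 CPM in young and 4031 and 4750 CPM in aged libraries, with 4 of 12 called lower, among them the macrophage genes C1qa, C1qb and C1qc, which had no counts in aged GMPs. Erythroid markers in GMPs summed to 818 and 737 CPM in young and 80.5 and 30.8 CPM in aged libraries, with 4 of 8 called lower, neutrophil markers to 301 and 307 CPM against 118 and 153 CPM, with 4 of 8 called lower, and T and NK cell markers to 742 and 693 CPM against 992 and 1061 CPM, with 1 of 9 called higher. For T and NK cell markers in MPP3 and GMPs and erythroid markers in MPP4, the share called was below that of all tested genes. The part of cells with these markers in the member differences was not tested.

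In CLPs, where 10.4% of all tested genes were called, several marker lists differed between the ages. Dendritic cell markers summed to 1299 and 1286 CPM in the young and 4079 and 2684 CPM in the aged CLP libraries, and 4 of 7 were called higher (Cd209a, Clec9a, Klk1 and Siglech). Siglech, a plasmacytoid dendritic cell gene, had means of 1063 CPM in young and 2622 CPM in aged CLPs. Among the members, aged library 1 was the higher one for Ccr2, Ccr9, Cxcr2, Ccl3 and Ccl4 and the lower one for Cxcr4, Ccr7, Cx3cr1 and Ccl9. It was also higher for the dendritic, B lineage, neutrophil, and monocyte and macrophage sums, and lower for the basophil and mast cell sum. This order was therefore not particular to Ccr2, Ccr9 and the dendritic sum. B lineage markers summed to 2875 and 2945 CPM in young and 1357 and 1346 CPM in aged CLPs, with 8 of 9 called lower, and neutrophil markers to 618 and 633 CPM against 171 and 92.7 CPM, with 7 of 8 lower. Basophil and mast cell markers summed to 1773 and 1827 CPM in young CLPs and to 11.4 and 13.1 CPM in aged CLPs, with 6 of 9 called lower. T and NK cell markers had 2 of 9 called lower. Monocyte and macrophage markers summed to 583 and 615 CPM in young and 976 and 727 CPM in aged CLPs, with 2 of 12 called higher (Ly6c2, 220 to 451 CPM, and Cd68, 107 to 292 CPM) and 7 lower. The part of these cells in the rise of Ccr2 and Ccr9 and in the fall of Ccl3, Ccl4 and Ccl9 in CLPs was not tested.

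**Figure D3:**
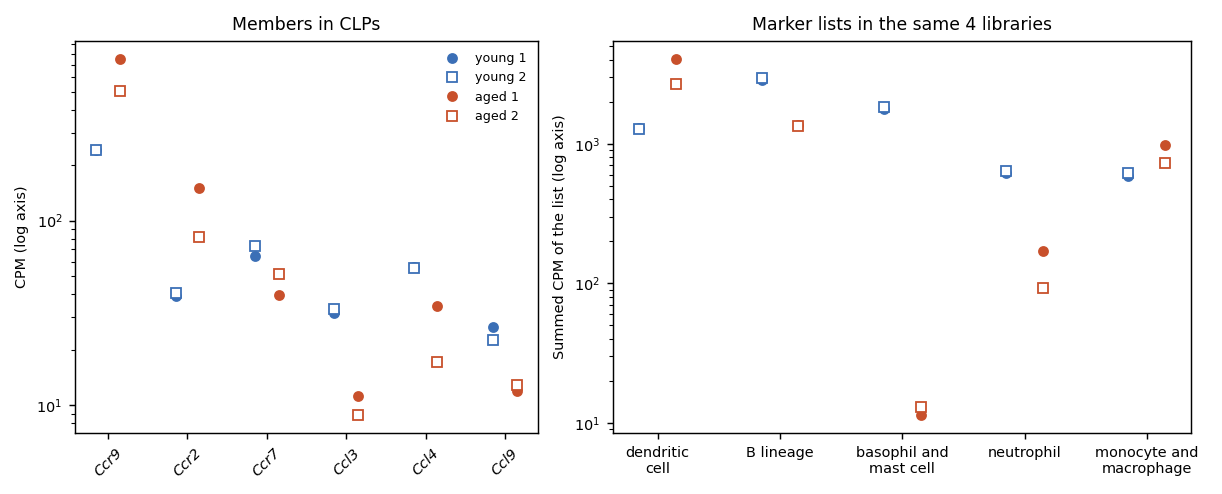
Levels in the 4 CLP libraries in CPM (log axes), 1 point per library. Ccr9, Ccr2, Ccr7, Ccl3, Ccl4 and Ccl9 are on the left and the summed levels of the marker lists on the right. Cxcr4, Cxcr2 and Cx3cr1 are not drawn. Ccr2, Ccr9 and the dendritic sum are higher in both aged libraries, and Ccl3, Ccl4, Ccl9 and the B lineage, neutrophil and basophil sums are lower.

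The steps between fractions were tested as the mean of both ages. From HSCs to MPP1, 2 members were called, against 32.1% of all tested genes: Cxcr4 was higher in MPP1 (0.58 ± 0.15, adjusted p 0.00278) and Ccl4 lower (-0.66, adjusted p 0.000654). The Cxcr4 call was lost without young HSC library 2 (0.0103) or aged HSC library 2 (0.0337). From MPP1 to MPP2, 4 members were higher (Ccr2, Ccr9, Cx3cr1 and Ccl9) and Ccl4 was lower, 5 in all against 15.5%. Ccl9 rose 3.12-fold there, and the Ccr9 and Ccl4 calls at this step were lost without several single libraries. From MPP2 to MPP3, 4 members were higher and none was called lower (4.67% of all genes called): Ccl3 4.57-fold, Ccl9 3.05-fold, Ccl4 3.01-fold and Cx3cr1 2.77-fold.

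From MPP3 to MPP4, 5 members were called, all higher in MPP4, against 9.69% of all genes. Ccr9 rose 8.55-fold (adjusted p 3.2e-07), Ccr7 6.52-fold (2.73e-06), Ccl3 6.28-fold (1.44e-13), Ccl4 2.82-fold (4.84e-08) and Ccl9 1.64-fold (1.49e-06). In GMPs against MPP3, 8 members were called, 4 in each direction, against 61.5% of all genes. Ccr2 was 17.4-fold, Cx3cr1 7.47-fold, Ccl9 4.44-fold and Cxcr4 3.76-fold higher in GMPs, whereas Ccl4 was 28.9-fold and Ccl3 11.5-fold lower, and Ccr7 and Ccr9 were near 0 counts. The mean over both ages hides the age difference of Ccl3 and Ccl4 in GMPs described above.

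In MEPs against MPP2, 4 members were called lower, against 70.7% of all genes: Ccl3, with 0 counts in every MEP library, Ccl4, Ccl9 (16.9-fold lower, adjusted p 5.38e-17) and Ccr2 (-1.25, adjusted p 0.000946). In CLPs against MPP4, 8 members were called, 5 higher and 3 lower, against 50.1% of all genes. The 5 receptors Ccr9 (41.9-fold, adjusted p 4.56e-15), Ccr2 (12.7-fold), Cx3cr1 (8.95-fold), Ccr7 (5.08-fold) and Cxcr4 (3.14-fold) were higher in CLPs. The 3 ligands Ccl3 (8.38-fold), Ccl9 (6.25-fold) and Ccl4 (3.44-fold) were lower. Cxcr2 was called at 0 of the 7 steps by edgeR, with 1 step at an unadjusted p under 0.05 and 0 called by DESeq2.

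Within a member, the fractions were ordered by mean level, and the libraries of neighbours in that order were compared. Of 7 neighbouring pairs at each age, 0 to 2 overlapped for the 3 ligands and 2 to 4 for the 6 receptors. These counts are a description, since no such share over all tested genes is given. Several receptors, such as Ccr7 and Ccr9, had few counts in many fractions, so the counts do not compare ligands with receptors. In young cells Ccl4 levels ran from MPP4 through MPP3, CLPs, HSCs, MPP1, MPP2 and GMPs to MEPs, and none of the 7 neighbouring pairs overlapped. In aged cells Ccl9 ran from GMPs through MPP4, MPP3, MPP2, CLPs, HSCs and MPP1 to MEPs, again without overlap of neighbours. Ccl3 was highest in MPP4 at both ages, and in aged cells MPP3, GMPs and CLPs overlapped behind it. Ccr9 was highest in CLPs and second in MPP4 at both ages, and behind them aged HSCs, MPP3, MEPs and MPP2 overlapped. Cx3cr1 was highest in GMPs and CLPs at both ages, and these overlapped in aged cells. Cxcr4 and Cxcr2 had 4 overlapping neighbour pairs of 7 at each age.

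The wider chemokine system was described with 3 lists: 18 other receptors (13 tested), 37 other ligands (19 tested, and 8 with no counts in any library) and 23 genes of receptor signalling (23 tested). Among the other receptors, 1 was called lower in each of HSCs, MPP1, MPP2, MPP4 and MEPs, 2 were lower in MPP3, and 2 were higher in CLPs. Over all tested genes, the share called ran from 5.4% in HSCs through 6.8%, 7.81%, 13.9% and 16.6% in the 4 MPP fractions to 20.8% in MEPs and was 10.4% in CLPs, so 1 of 13 receptors is a share near or below that background. Their median was -0.16 in HSCs (11 receptors with a fold), -0.76 in MPP3 (11) and -0.42 in CLPs (11). Ccrl2, an atypical receptor that presents chemerin, was the one lower in HSCs (78.2 ± 1.0 to 43.9 ± 3.4 CPM, -0.83 ± 0.098, adjusted p 6.25e-06), and it also fell in MPP1 (-0.77), MPP2 (-0.84), MPP3 (-0.76) and MPP4 (106.6 ± 3.9 to 55.6 ± 0.49 CPM, -0.94, adjusted p 5.24e-07). Ackr1, a chemokine-binding receptor that does not signal, was the second in MPP3, with 48 and 52 counts in young and 4 and 4 in aged libraries (-3.68, adjusted p 0.00306).

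Cxcr3, a receptor of activated T cells, was among the receptors called higher in CLPs, with 478 and 506 counts in young and 2120 and 1288 in aged libraries (40.1 ± 1.2 to 129.7 ± 48 CPM, 1.69 ± 0.30, adjusted p 0.000406). Aged library 1 was again the higher one, and Cxcr3 is given here outside the rule for named genes, after its values were seen. Cxcr5, a receptor of mature B cells, had 15 and 25 counts in young MEPs and 0 in both aged libraries (at least 5.11-fold lower, adjusted p 0.00664). In GMPs, where the Ccl3 and Ccl4 transcripts rose, 0 of the 13 receptors were called by edgeR, and 2 had an unadjusted p under 0.05.

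Of the other ligands, 4 were called lower in MPP2 and 7 in MPP3, with none called higher in either fraction, against 7.81% and 13.9% of all tested genes called. Their median log2 fold change, over the ligands with a fold and with ligands without counts at 1 age set at their bound, was -0.87 in MPP2 (16 ligands) and -1.22 in MPP3 (18 ligands). Cxcl12, the ligand of Cxcr4, had 1009 and 923 counts in young and 15 and 22 counts in aged MPP3 (70.8 ± 1.0 to 1.30 ± 0.42 CPM) and fell by 5.76 ± 0.61 (adjusted p 2.34e-06). In MPP2 it had 778 and 825 counts in young and 184 and 148 in aged libraries (-2.39 ± 0.48, adjusted p 0.0023). Both aged pairs were far below the young ones, while the differences in HSCs (5.28 ± 2.0 and 5.96 ± 1.8 CPM, adjusted p 0.899) and MPP1 (3.60 ± 0.41 and 3.15 ± 0.40 CPM, adjusted p 0.913) did not pass. Cxcl12 had at most 33 counts per library in MPP4, GMPs, MEPs and CLPs. Ackr3, the other receptor for Cxcl12, did not pass the filter and had at most 11 counts in any library.

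Ppbp moved in opposite directions in MPPs and CLPs. This ligand of Cxcr2, which platelets store, had 143 and 146 counts in young and 9 and 5 in aged MPP2 (-4.46, adjusted p 5.02e-05). It had 76 and 75 against 9 and 8 counts in MPP3 (-3.20, adjusted p 0.000459) and 14 and 23 against 2 and 0 counts in MPP4 (-3.97, adjusted p 0.00444). In CLPs, however, it had 10 and 12 against 403 and 203 counts (4.67 ± 0.56, adjusted p 6.84e-06). Pf4, also given outside the rule for named genes, was called in the same directions in MPP2 (-1.85), MPP3 (-2.73) and CLPs (4.02). Ccl6, a close relative of Ccl9, fell in CLPs from 26.3 ± 1.8 to 6.62 ± 2.1 CPM (-1.99, adjusted p 5.23e-05) and in MEPs from 15 and 5 counts to 0 (at least 2.45-fold lower, adjusted p 0.000676). Cxcl10, an interferon-induced ligand of Cxcr3, had 15 and 12 counts in young and 29 and 58 in aged GMPs (2.02 ± 0.37, adjusted p 0.000306) and was the single other ligand called in GMPs. In MPP3 Cxcl10 fell, from 227 and 201 counts in young to 96 and 88 in aged libraries (-1.29, adjusted p 0.0019). Cxcl13, the ligand of Cxcr5, had 0 counts in both young and 17 and 19 in aged MPP4 libraries (at least 6.36-fold higher, adjusted p 0.00375). In HSCs and in MPP1 edgeR called 0 of the 19 other ligands, and 3 and 6 of them had an unadjusted p under 0.05.

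Among the signalling genes, 13 were called lower and 1 higher in MEPs, and 6 lower and 5 higher in GMPs, against 20.8% and 18.9% of all genes, with medians of -0.55 over 22 genes in MEPs and 0.0029 over 21 genes in GMPs. Rgs1, which dampens G protein signalling downstream of chemokine receptors, fell in MPP1 (-1.06), MPP2 (-1.26), MPP3 (-1.62), CLPs (-1.19) and most in MPP4, from 453 ± 56 to 85.5 ± 1.1 CPM (-2.41 ± 0.16, adjusted p 2.76e-09). Rgs2 was the single signalling gene called in HSCs, from 211 ± 11 to 128 ± 4.8 CPM (-0.72, adjusted p 0.00386), and it also fell in MPP1 (-1.13), MPP2 (-1.06), MPP3 (-1.16), MPP4 (-1.35), MEPs (-2.08) and CLPs (-0.86). In GMPs Grk3, a receptor kinase, rose (1.04 ± 0.24) and Dpp4, a protease that trims chemokines, fell (-0.80 ± 0.14). In MEPs Elmo1, an activator of Rac, fell from 21.1 to 3.15 CPM (-2.73 ± 0.14) while Grk6 rose slightly (0.37). Gnb1, a G protein beta subunit, was the one signalling gene called higher in MPP4 (217 to 268 CPM, 0.30).

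**Figure D4:**
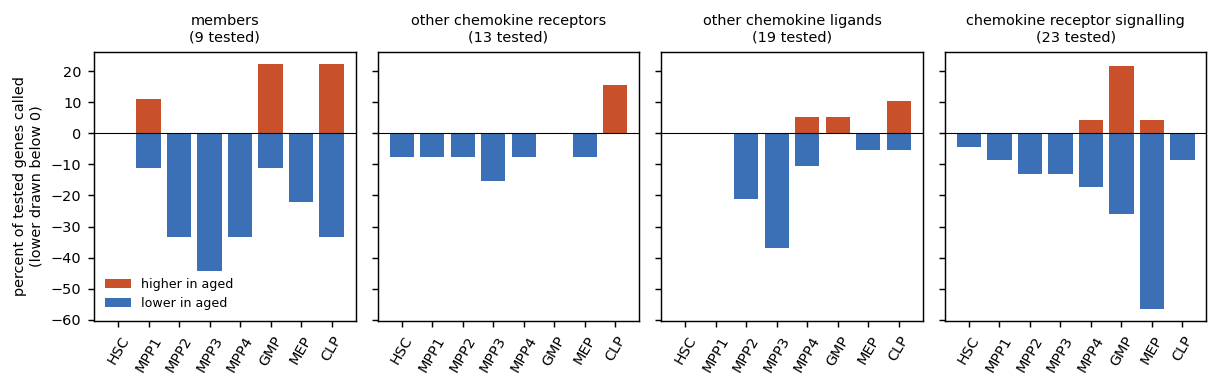
Percentage of the tested genes of each list (y axis) called higher or lower in aged cells in each of the 8 fractions (x axis), for the 9 members, other receptors, other ligands and signalling genes. In MPP3, 4 of 9 members and 7 of 19 other ligands were lower, and in MEPs 13 of 23 signalling genes were lower.

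The genes whose mean log2 level followed each member most closely over the 16 groups are given as a description, since the groups share libraries, depth and cell type. Ccr2 was nearest to another member, Cx3cr1 (r = 0.976, n = 16 group means), followed by Pyhin1 (0.965) and Tifab (0.960). Ccr9 was nearest to Lifr (0.973), Itgax (0.965) and Map3k19 (0.962), and Ccr7 to Nsg2 (0.949), Dscam (0.946) and the lymphoid gene Dntt (0.945). Ccl3 was nearest to Tnf (0.951), Ccl4 (0.938) and Wfdc17 (0.923), Ccl4 to Ift122 (0.973), Gramd1a (0.973) and Nfkbia (0.968), and Ccl9 to Cebpa (0.969), Abcd2 (0.951) and Tmem180 (0.943). The nearest genes of Cxcr4 were Capzb (0.970), Frg1 (0.962) and Serp1 (0.959), those of Cx3cr1 after Ccr2 were Pyhin1 (0.956) and Rab7b (0.949), and those of Cxcr2 were Lgals3 (0.916), Ccl6 (0.875) and Myo7a (0.872). Between members, Ccr7 and Ccr9 had r = 0.930, Cxcr4 and Ccr2 0.928 and Cxcr4 and Cx3cr1 0.898 over the same 16 means.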

How the data were processed

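The authors pooled marrow by age, sorted each fraction in duplicate, amplified RNA with the SMARTer Ultra Low Input kit and, per the labels, aligned single reads to mm10 with TopHat2 2.0.13 and Bowtie2 2.1.0; they deposited a matrix of raw counts per gene from StringTie, with no strand setting or molecular identifiers stated. Their normalized table and 8 tables of their own comparisons (fold changes and p-values) were not used. The 24421 genes were filtered with filterByExpr (14154 kept), scaled by TMM (factors 0.807 to 1.11) and fitted with edgeR 4.0.16 in R 4.3.3 over all 32 libraries as 16 groups (16 residual degrees of freedom, common dispersion 0.0127). Quasi-likelihood F tests gave 8 age contrasts, 7 steps and an interaction with 7 degrees of freedom, each adjusted by Benjamini-Hochberg and called under 0.01. An SE is the absolute log2 fold change divided by the square root of F. Alternatives used DESeq2 1.42.0, other scaling, no filter, GC and length offsets (98.9% of tested genes had both), a replicate block, the 4 libraries of a fraction alone and each library left out, which assumes that a lone library varies like other groups. Floors cover counting error only. In the matrix, 27 date-like symbols held 0.188% of counts. Coordinates came from GENCODE M21 on GRCm38, matched for 23350 symbols directly and for 677 by an older symbol. Members and lists were chosen with earlier results of these data known; named genes of the wider lists were the called gene with the largest rise and fall per list and fraction, plus Cxcl12 and Ackr3, and not every gene under this rule is reported here. The fits were tested on simulated data.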

Additional observations from a re-analysis of the deposited data

Results flagged for a closer look

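For 7 members the test of the difference itself found that the age effect was not the same in all 8 fractions (edgeR, Benjamini-Hochberg adjusted over all tested genes). The adjusted p was 1.17e-10 for Ccl3 and 1.29e-06 for Ccl4, which fell in MPP2, MPP3, MPP4 and CLPs and rose in GMPs. It was 1.49e-05 for Ccr9, which fell in MPP3 and MPP4 and rose in CLPs, and 4.45e-05 for Ccr2, which fell in GMPs and rose in CLPs. It was 0.00044 for Cx3cr1, 0.00117 for Ccl9 and 0.00386 for Ccr7. With 2 libraries in a group no single library could be tested as an outlier.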

How the results depend on the processing

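None of the 22 called age differences changed direction in any setting tried. Of the 22, 21 stayed called in every setting that kept all libraries and groups, the exception being Ccr2 in GMPs with GC and length offsets, and 11 stayed called without each library in turn. DESeq2's scaling and no filter on low counts changed no age call, and the DESeq2 test lost 0 and gained 4 (Ccr2 in MPP3, MPP4 and MEPs, Ccr9 in MPP2). Scaling by DESeq2's factors moved the median of all genes by at most 0.07 in size (GMP against MPP3, -0.07). The fit on the 4 libraries of a fraction had fewer residual degrees of freedom and its own estimate of the spread. For a cause that was not tested, it lost 9 age calls. Those were Cx3cr1 in MPP1, Ccl9 in MPP3, Ccl4 in GMPs, Ccr7 and Cx3cr1 in MEPs, and Ccr2, Ccr9, Ccl4 and Ccl9 in CLPs. That fit left 1 member called in MPP1, 0 in MEPs and 1 in CLPs, and its share called over all tested genes is not given. CPM on unscaled library totals moved the highest level by more than 1 SD for 5 members, to 32.4 for Cxcr4, 179 for Ccr2, 8.13 for Cxcr2, 34.5 for Cx3cr1 and 254 for Ccl9. The wider lists were not refitted without single libraries.

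Without single libraries, the number of members called ran from 0 to 1 for MPP1, 1 to 2 for MPP2, 2 to 3 for MPP3, MPP4 and GMPs, 1 to 3 for MEPs, 3 to 5 for CLPs, 1 to 2 from HSCs to MPP1, 3 to 4 from MPP1 to MPP2 and 4 to 5 from MPP2 to MEPs. It was 0 in HSCs. For the interaction the number was 7 throughout but not always the same genes, since without either aged MEP library Ccr7 was lost and Cxcr2 gained.

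Of 42 uncalled age differences, 13 changed direction in some setting, and the cause was not tested. With GC and length offsets (and with the replicate block added) the log2 fold change was -0.032 (-0.031) for Cxcr4 in MPP2, 0.073 (0.076) for Cxcr4 in CLPs, 0.14 (0.13) for Cxcr2 in GMPs and 0.12 (0.13) for Ccl9 in GMPs. Without single libraries it ran from -0.45 to 0.051 (Cxcr4, HSC), -0.090 to 0.58 (Cxcr4, MPP3), -0.25 to 0.17 (Cxcr4, CLP), -0.20 to 5.71 (Ccr2, HSC), -5.38 to 0.29 (Ccr7, MPP1), -0.75 to 0.84 (Ccr7, MPP2), -2.58 to 0.13 (Ccr9, MEP), -0.20 to 0.17 (Cxcr2, GMP), -9.16 to 0.35 (Cxcr2, MEP), -0.34 to 0.40 (Cx3cr1, CLP) and -0.22 to 0.026 (Ccl9, MPP4).

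Whether replicate numbers paired samples by origin was not stated. Deviations of young and aged libraries with the same number had r of -0.26 to 0.42 over 9342 genes. Between fractions of the same age, r ran from -0.11 to 0.31 in young and from -0.17 to 0.26 in aged libraries. These values cannot decide the question, and the main tests treated the fractions as independent. A replicate block left the members called at 0 for HSCs, 2 for MPP1 and MEPs, 3 for MPP2, MPP4 and GMPs, 4 for MPP3 and 5 for CLPs and changed no age call.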
